A study of Mus musculus with 4 samples.

Results

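Cycling myogenic progenitors are the dividing muscle-forming cells of the fetal leg. They were taken here as cells that carried transcripts of the myogenic lineage and of the division machinery together. Among the cells kept after quality limits (1000 to 6000 detected genes, 1000 to 25000 unique molecular identifiers, UMIs, and under 8% mitochondrial UMIs), a member had at least 2 of the 4 genes *Pax7*, *Myf5*, *Msc* and *Myod1* detected. It also had 3 or more UMIs of *Mki67* and *Top2a* together, at most 2 UMIs of *Myog* and no UMI of *Pdgfra*. The rule found 1664 members, which were 4.50% of the 36969 kept cells and came from 41741 deposited cells.

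Leg muscles of E18.5 fetal mice of 2 genotypes were dissociated with trypsin and DNase I, red blood cells were lysed, and single cells were sequenced from the 3′ ends of their transcripts in droplets. The 2 groups were wild type (WT) and animals in which *SYISL*, a non-coding transcript that lies within *Synpo2*, was knocked out (KO), with 2 libraries each that the labels call biological replicates and that came from the same litter. How the allele was made, how many fetuses entered a library and their sex were not given in the labels. P-values below measure the spread between these 4 libraries. Values listed for the 4 libraries follow the order WT replicate 1, WT replicate 2, KO replicate 1 and KO replicate 2.

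In fetal muscle, progenitors marked by the transcription factor *Pax7* divide to build a pool that feeds the growing fibres. Commitment brings *Myod1*, and differentiation brings *Myog*, after which the cells leave the cell cycle and fuse. Each division passes through licensing of replication origins, DNA synthesis, and a mitosis driven by *Cdk1* with B-type cyclins, and the transcripts of these steps rise and fall in turn.

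The members numbered 353, 325, 511 and 475. Their median depth was 13853, 15222, 11555 and 12958 UMIs, lower in both KO libraries than in both WT libraries. Summed over its members, each library held 4891329 to 6341065 UMIs. No barcode was shared between the members of any pair of libraries, and 15 to 27 barcodes were shared between the kept cells of a pair. Scrublet, a doublet caller, marked 9, 3, 13 and 13 members (2.55%, 0.923%, 2.54% and 2.74%). KO replicate 2 stood apart by sex-linked transcripts. *Xist*, expressed from the inactive X chromosome, was at 0, 0, 0 and 1522 CPM (counts scaled to 1000000 UMIs of the summed cells) in the members, and the Y-linked *Uty* was at 83.6, 94.2, 73.7 and 0 CPM. Sex and replicate cannot be told apart within the KO group.

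The genes used to choose the cells are given as a description only. In the members, *Mki67*, a marker of dividing cells, was at 489, 476, 494 and 467 CPM, and *Top2a*, the topoisomerase that untangles chromosomes, was at 864, 837, 848 and 840 CPM. The median member carried 16, 18, 14 and 15 UMIs of both together, and both were detected in 91.7% to 95.8% of members. On the same CPM scale, which in a 3′ end assay does not grow with transcript length, *Msc* (musculin) was the highest of the myogenic genes at 265, 297, 289 and 306 CPM, followed by *Pax7* at 132, 137, 140 and 131 CPM, *Myf5* at 129, 134, 148 and 124 CPM, and *Myod1* at 106, 82.6, 103 and 106 CPM. All 4 myogenic genes were found in 24.6% to 26.6% of members, exactly 3 in 39.7% to 49.5% and exactly 2 in 25.5% to 33.9%. The trio of *Pax7*, *Myf5* and *Msc* without *Myod1* was a frequent combination, in 23.1% to 30.2% of members.

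The limits of the rule cut through a gradient. Members with exactly 3 UMIs of *Mki67* and *Top2a* numbered 21, 27, 35 and 42, and their summed *Cdk1* level was 178, 86.8, 187 and 225 CPM. Cells that met every other limit with exactly 2 UMIs numbered 47, 44, 64 and 55, and their *Cdk1* level was 142, 123, 204 and 102 CPM. Both sides of that limit lay far under the *Cdk1* level of all members, which was 510, 508, 534 and 510 CPM. At the *Myog* limit, 5, 5, 7 and 10 members held 2 UMIs, and 4, 0, 4 and 6 cells outside held 3.

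The name was checked against *Cdh15* and *Mymk*, which the rule did not use. *Cdh15* (M-cadherin, an adhesion protein of muscle progenitors) had a UMI in 29.1%, 30.2%, 29.8% and 28.6% of members after every cell was thinned to 5000 UMIs, and in 60.1%, 67.1%, 53.8% and 61.5% without thinning. Cycling *Pdgfra* cells served as the background. They were kept cells with 3 or more UMIs of *Mki67* and *Top2a*, 2 or more of *Pdgfra* and none of the 4 myogenic genes, 2437 in all, with a median depth of 13392.5 to 16895 UMIs. *Cdh15* had a UMI in 0.207%, 0.319%, 0.168% and 0.703% of them after thinning and in 0.478% to 1.67% without it. They were chosen to lack the 4 myogenic genes, so the contrast is a description. In progenitors with no UMI of *Mki67* or *Top2a* (defined below), *Cdh15* was more frequent than in members. It had a UMI in 35.1%, 40.1%, 36.4% and 36.7% of those cells after thinning. *Mymk*, which encodes the fusion protein myomaker, was found in 0% to 0.636% of thinned members and 0.207% to 0.670% of thinned cycling *Pdgfra* cells. These ranges overlapped, so *Mymk* did not set the members apart from that background. Thinning left out 3, 0, 4 and 3 members. The 5 markers given for these cells, *Mki67*, *Top2a*, *Pax7*, *Myf5* and *Myod1*, all took part in the rule. *Myog* was limited by it and had a UMI in 7.37% to 10.2% of members before thinning.

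Cells of other types were looked for among the members. Counting cells with 5 or more UMIs of at least 1 of 6 marker groups (vascular, glial, immune, tendon, fibroblastic and haemoglobin), 18, 9, 21 and 23 members (5.10%, 2.77%, 4.11% and 4.84%) were found, and the median member had 0 UMIs of every group in every library. The summed fibroblastic markers *Dcn* and *Lum* were at 48.5, 39.0, 71.7 and 73.8 CPM, higher in each KO than in each WT library. The summed haemoglobin genes were at 10.1, 5.11, 4.08 and 639 CPM, with 2 members of KO replicate 2 past the 5 UMIs. Immune markers were at 117, 10.6, 24.2 and 11.5 CPM, with the high value in WT replicate 1, and tendon markers were at 160, 33.7, 21.9 and 63.6 CPM. The summed values for vascular markers were 32.0, 45.0, 45.1 and 43.7 CPM.

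The division programme was first set beside that of 1959 non-cycling progenitors, cells that met the same myogenic limits with no UMI of *Mki67* or *Top2a* (median depth 7286 to 9454 UMIs, under that of the members in every library). Their name refers to the absence of these UMIs, and whether all such cells were outside the cell cycle was not tested. The comparison is a description without a test, because the rule chose the cells by 2 genes of the programme. The CPM values are of summed cell sets, in which more cells with a transcript and more transcript per cell cannot be told apart. A gene was counted as 2-fold higher or lower where its mean CPM differed at least 2-fold and 4 of 4 libraries shared the direction. Of 10448 genes at 5 CPM or more in either set, 646 (6.18%) were 2-fold higher in the members and 136 (1.3%) were 2-fold lower. The median fold of all these genes was 0.977.

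Mitosis genes stood furthest above the non-cycling cells. The rule favours this order, because *Mki67* and *Top2a* were themselves higher in members rich in mitosis transcripts (values below). Of 24 mitotic kinases and regulators, 23 were 2-fold higher, with a median fold of 28.2. *Aurkb*, the kinase of the chromosomal passenger complex, was at 211, 204, 235 and 231 CPM in the members and at 1.75, 0.578, 3.76 and 1.21 CPM in non-cycling progenitors. *Ccnb1* (cyclin B1) was at 140, 128, 137 and 153 CPM against 2.99, 1.16, 1.04 and 3.38 CPM. The ranges of both genes in the 2 cell sets were far apart in all libraries. *Plk1*, which starts mitotic entry, had 1017 UMIs in the members and 3 in the non-cycling cells, a CPM ratio of 250 with a 95% exact binomial interval of 85.2 to 1212 that covers counting error only. The exception in the list was *Pttg1* (securin), at 0.78-fold. All 28 genes of the kinetochore, spindle and cytokinesis list were higher in the members, from 10.3-fold to 105-fold, and so were all 15 condensin and chromatin genes of dividing cells, with a median fold of 6.19.

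Outside those lists, *Esco2*, the acetyltransferase that sets sister chromatid cohesion, was among the genes with the largest folds, at 192, 184, 212 and 161 CPM in the members and 1.25, 0.289, 1.25 and 0.241 CPM in the non-cycling cells. The same rule named *Kif14*, *Kif18b* and *Kif4*, kinesins of the spindle, at 1266, 701 and 4055 UMIs in the members and 5, 3 and 29 UMIs in the non-cycling cells. *Cdca5* (sororin, which guards cohesion) had 879 UMIs against 5, *Hmmr* 4550 against 35 and *Cep55*, an organiser of the final cut between daughter cells, 1439 against 11. *Depdc1a* and *Depdc1b* had 2523 and 481 UMIs against 17 and 2. *Hist1h2af*, a replication-dependent histone gene, had 2075 against 7, and its reads can be split among near-identical histone copies, so its value is uncertain.

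Replication genes differed less and not all alike. Of 30 DNA synthesis genes, 22 were 2-fold higher, with a median fold of 2.40. *Rrm2*, a subunit of ribonucleotide reductase, was at 150, 155, 162 and 155 CPM against 14.7, 10.7, 10.2 and 21.2 CPM. *Pcna*, the sliding clamp, was 1.74-fold higher at 348, 359, 375 and 340 CPM against 181, 206, 202 and 231 CPM. Of 19 licensing genes, 9 passed, with a median fold of 1.92. The 6 subunits of the MCM helicase ring were under 2-fold, with *Mcm2* at 0.85, *Mcm6* at 0.88, *Mcm4* at 1.04, *Mcm3* at 1.08, *Mcm5* at 1.48 and *Mcm7* at 1.72, while *Mcm10*, which fires origins, was 11.4-fold higher and *Cdc45* 5.85-fold higher. *Mcm6* was at 99.8, 105, 105 and 104 CPM in the members and 105, 126, 110 and 128 CPM in non-cycling progenitors. *Mcm6* was thus higher in the non-cycling cells within each library, whereas *Mcm5* and *Mcm7* were higher in the members within each library.

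**Figure D1:**
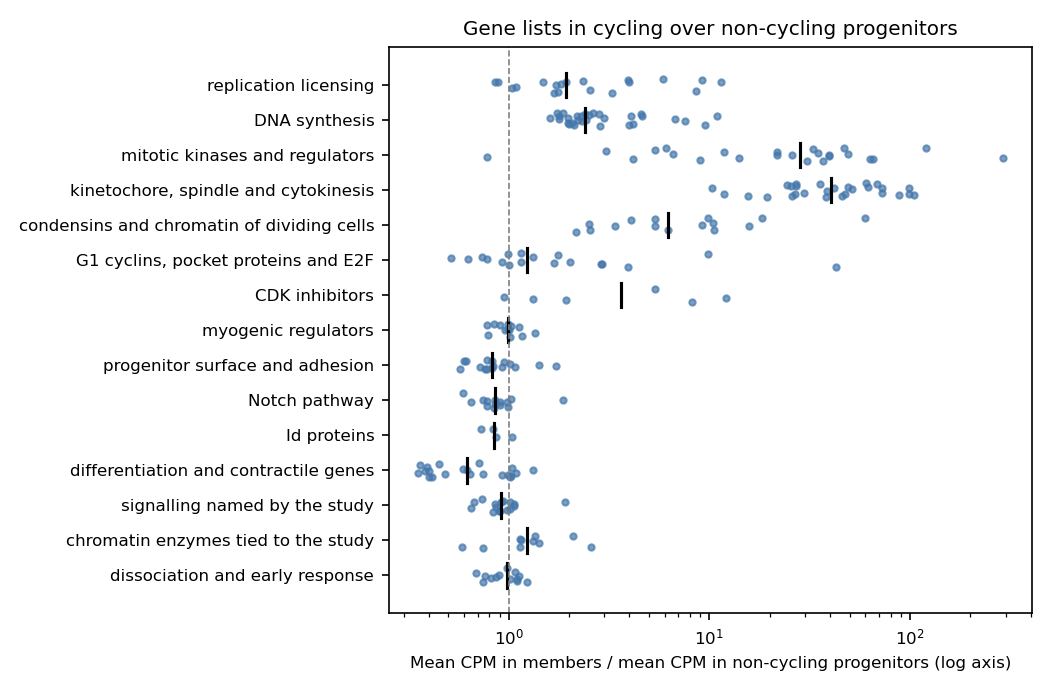
Fold of each gene's mean level in the 1664 members over that in non-cycling progenitors, grouped by gene list, on a log axis. Each point is a gene, and the bar of a list marks the median of the genes drawn. Genes used by the rule are not drawn. Kinetochore genes sit between 10.3-fold and 105-fold. The 18 myogenic regulators compared, those of the rule included, lie between 0.72-fold and 1.35-fold.

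Regulators of the G1 phase lay on both sides. *Ccnd1* and *Ccnd2*, D-type cyclins that couple growth signals to the cell cycle, were at 0.62-fold and 0.51-fold, and *Ccnd1* was at 30.4, 43.3, 35.6 and 49.5 CPM in the members against 44.6, 67.7, 54.1 and 88.5 CPM in non-cycling cells. The atypical repressor *E2f8* was 42.6-fold higher, at 76.5, 80.3, 103 and 79.8 CPM against 2.24, 0.868, 2.92 and 1.93 CPM. Of 18 genes of this list, 6 were 2-fold higher and 0 were 2-fold lower. The *Ccnd1* levels of the 2 cell sets overlapped across libraries but were lower in the members within each library.

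Inhibitors of cyclin-dependent kinases were not lower in the dividing cells as a group. Of the 6 genes compared, *Cdkn2c*, *Cdkn3* and *Cdkn2d* were 12.1-fold, 8.21-fold and 5.37-fold higher in the members. *Cdkn1a* (p21) was 1.93-fold higher, at 142, 108, 163 and 111 CPM against 68.6, 64.2, 85.8 and 53.8 CPM. It had a UMI in 43.7%, 36.6%, 47.9% and 36.0% of thinned members, in 20.8% to 27.9% of thinned non-cycling progenitors and in 21.4% to 25.5% of thinned cycling *Pdgfra* cells. Without thinning the share in the members was 57.7% to 67.7%. *Cdkn1c* (p57), which holds muscle cells out of the cycle, was at 4365, 4741, 4145 and 4979 CPM in the members, 0.94-fold of the non-cycling level, and was the highest inhibitor transcript in both cell sets.

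The myogenic and niche genes were near their level in non-cycling progenitors. Of 18 myogenic regulators, 16 surface and adhesion genes, 14 Notch pathway genes and 4 Id genes, 0 passed 2-fold in either direction, and the list medians were 0.976, 0.825, 0.854 and 0.849. Among Notch targets, *Heyl* was at 21.5, 28.6, 25.2 and 27.4 CPM in the members against 48.1, 44.0, 44.7 and 37.6 CPM, 0.59-fold. *Heyl* had a UMI in 9.43% to 14.5% of thinned members and in 14.4% to 20.4% of thinned non-cycling cells. *Nrarp*, a feedback inhibitor of Notch, was at 1.86-fold, the highest fold of its list. *Myod1* had a UMI in 35.1%, 30.2%, 35.5% and 35.6% of thinned members and in 27.8%, 23.1%, 30.2% and 26.4% of thinned non-cycling cells, higher within each library. *Pax7*, *Myf5*, *Msc* and *Myod1* count towards the rule in both cell sets, and *Myog* is limited by it in both. For these genes of the myogenic list the likeness of the 2 sets was thus set in part by the rule.

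Of 21 differentiation and contractile genes, 8 were 2-fold lower in the members, with a list median of 0.621. Without KO replicate 2 these counts were 3 and a median of 0.817, whereas without any other library 7 or 8 genes passed. *Acta1*, skeletal actin, was at 61.1, 37.2, 71.5 and 49.8 CPM in the members and at 76.3, 53.5, 80.6 and 400.1 CPM in non-cycling progenitors, where KO replicate 2 stood far above the rest, and was 2.78-fold lower in the members with all libraries and 1.24-fold lower without KO replicate 2. Outside the lists, the gene with the largest fold towards non-cycling cells was *Kdm5b*, a histone H3K4 demethylase, at 8.72, 8.38, 7.19 and 8.99 CPM in the members against 37.7, 52.9, 38.0 and 38.6 CPM, a ratio of 4.96 with a counting interval of 4.21 to 5.87. *Kdm7a*, another histone demethylase, was 3.05-fold lower in the members, and *Ogn*, which encodes the matrix proteoglycan osteoglycin, was 3.48-fold lower at 51.9, 45.2, 49.0 and 50.5 CPM against 200.5, 150, 177 and 157 CPM. The other named genes with lower levels were *Rangrf*, *Traf3ip3*, *Psen2*, *Ddx54* and *Nckap5*, and the contractile or muscle enzyme genes *Tnnc2*, *Mylpf* and *Ckm*, whose folds of 2.83, 2.56 and 2.51 were 1.25, 1.22 and 1.21 without KO replicate 2. Of 10 chromatin enzymes, 2 were 2-fold higher and 0 were 2-fold lower, with a median fold of 1.24. The Polycomb genes *Ezh2*, *Suz12* and *Eed* were at 2.57-fold, 2.08-fold and 1.36-fold and *Jarid2* and *Ezh1* at 0.74-fold and 0.58-fold, with *Ezh2* at 462, 434, 462 and 406 CPM against 164, 170, 177 and 175 CPM.

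To show what the gene lists have in common in sequence, the promoters of the 2 most abundant mitotic and the 2 most abundant licensing genes with a promoter window are printed. The windows run from 250 bases before to 50 bases after the annotated start, are from RefSeq on GRCm38.p6, and read 5′ to 3′ along the gene's strand. Capitals mark matches, on either strand, to any of 4 motifs, which were the cell cycle homology region (CHR, TTTGAA), the NF-Y box (CCAAT), an E2F site (TTTNNCGC) and the E-box CAGCTG. *Cks2*, at 970.5, 823, 958 and 954 CPM, encodes a subunit of the cyclin-dependent kinase complex (chr13:51644982-51645281, plus strand). *Ube2c*, at 675, 613, 678 and 753 CPM, encodes the ubiquitin-conjugating enzyme of the anaphase-promoting complex (chr2:164769679-164769978, plus strand). *Orc6*, at 221, 200, 228 and 199 CPM, is an origin recognition subunit (chr8:85299382-85299681, plus strand), and *Mcm7*, at 150, 147, 145 and 144 CPM, is a helicase subunit (chr5:138171834-138172133, minus strand, the first of 2 listed windows).
Cks2: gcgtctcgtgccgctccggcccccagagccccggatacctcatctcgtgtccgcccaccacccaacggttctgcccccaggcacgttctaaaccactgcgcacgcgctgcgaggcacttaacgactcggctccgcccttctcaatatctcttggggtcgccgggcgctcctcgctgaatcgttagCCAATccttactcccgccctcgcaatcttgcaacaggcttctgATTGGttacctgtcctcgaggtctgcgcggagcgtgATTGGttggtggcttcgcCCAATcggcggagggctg
Ube2c: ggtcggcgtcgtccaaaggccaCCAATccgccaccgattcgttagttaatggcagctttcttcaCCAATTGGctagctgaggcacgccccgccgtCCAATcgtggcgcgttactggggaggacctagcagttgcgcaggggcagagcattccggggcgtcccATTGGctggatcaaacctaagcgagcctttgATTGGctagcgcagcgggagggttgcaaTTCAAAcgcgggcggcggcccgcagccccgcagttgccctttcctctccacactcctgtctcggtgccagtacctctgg
Orc6: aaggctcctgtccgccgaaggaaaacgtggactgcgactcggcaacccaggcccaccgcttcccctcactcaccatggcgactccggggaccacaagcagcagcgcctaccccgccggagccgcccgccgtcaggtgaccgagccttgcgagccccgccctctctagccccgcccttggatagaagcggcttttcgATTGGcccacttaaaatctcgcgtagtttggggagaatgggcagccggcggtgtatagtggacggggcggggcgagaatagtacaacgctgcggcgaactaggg
Mcm7: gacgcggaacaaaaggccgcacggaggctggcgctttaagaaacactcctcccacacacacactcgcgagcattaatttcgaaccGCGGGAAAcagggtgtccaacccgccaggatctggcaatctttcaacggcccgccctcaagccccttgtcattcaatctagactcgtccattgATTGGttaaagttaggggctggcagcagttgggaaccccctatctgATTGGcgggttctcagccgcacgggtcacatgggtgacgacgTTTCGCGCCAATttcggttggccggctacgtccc
The *Cks2* window holds 4 NF-Y boxes, and the *Ube2c* window holds 6 NF-Y boxes and 1 CHR. In *Ube2c*, 2 of the NF-Y boxes share bases, as the stretch CCAATTGG matches on both strands. The *Orc6* window holds 1 NF-Y box. The *Mcm7* window holds 3 NF-Y boxes and 2 E2F sites, of which 1 shares bases with an NF-Y box.

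Across the lists the letters were unevenly spread. CHR was in 22 of 26 windows (84.6%) of the kinetochore list and 11 of 19 (57.9%) of the mitotic list, against 17.9% of all 32851 windows. It was in 6 of 16 (37.5%) licensing windows and 2 of 30 (6.67%) DNA synthesis windows. The E2F letters were in 8 of 16 (50.0%) licensing and 8 of 30 (26.7%) DNA synthesis windows, against 5.17% of all. NF-Y boxes were in 84.2% of mitotic, 65.4% of kinetochore, 68.8% of licensing and 53.3% of DNA synthesis windows, against 37.4% of all. The E-box letters were in 13 of 25 (52.0%) windows of differentiation and contractile genes, in 1 of 17 myogenic regulator windows and in 16.3% of all. Windows were found for 24 of 28 kinetochore, 19 of 24 mitotic, 14 of 19 licensing, 24 of 30 DNA synthesis, 23 of 28 contractile and 11 of 19 myogenic regulator genes. A match is a description of letters and not of a bound site.

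Replication and mitosis were then separated within the members. After thinning to 5000 UMIs, a member was called replication-leaning where the licensing and DNA synthesis lists together had more UMIs than the mitotic and kinetochore lists together. The median member held 28, 29, 29 and 26 UMIs of the first kind and 51.5, 48, 53 and 54 of the second. Replication-leaning members were 101 of 350, 103 of 325, 145 of 507 and 133 of 472, or 28.9%, 31.7%, 28.6% and 28.2%. The cut lies in a continuous range, and 13, 13, 23 and 12 members lay within 2 UMIs of it. With shorter lists of 7 replication and 4 mitosis genes the share was 48.6%, 52.9%, 51.1% and 45.6%, so the level depends on the lists. Replication-leaning members were shallower than the mitosis-leaning rest, with medians of 10873 to 13380 against 12007.5 to 15547 UMIs before thinning. The 2 division genes of the rule were higher on the mitosis side. *Top2a* had a mean of 982 CPM in mitosis-leaning against 489 CPM in replication-leaning members, and *Mki67* 558 against 276 CPM. The level of the share therefore depends on the rule as well.

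**Figure D2:**
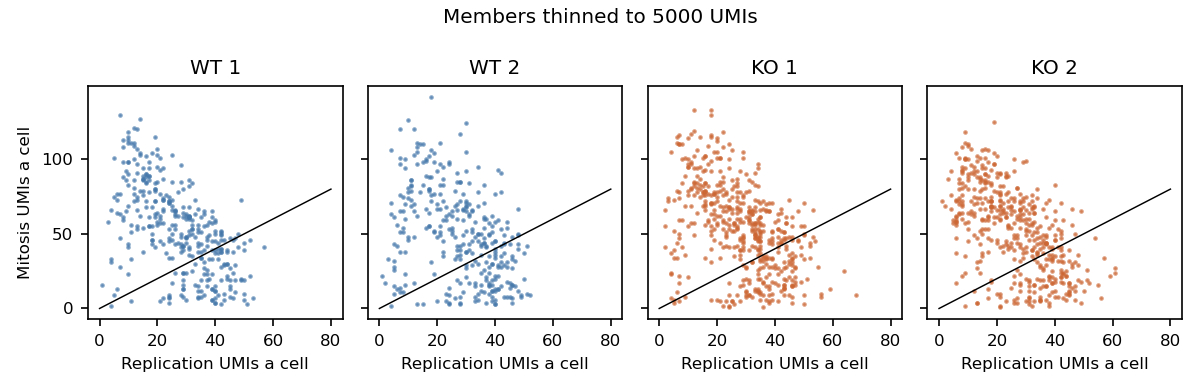
UMIs of the replication lists (x axis) against UMIs of the mitosis lists (y axis) in each member thinned to 5000 UMIs, with 1 panel per library and the diagonal as the cut. Members below the diagonal are replication-leaning and made up 28.9%, 31.7%, 28.6% and 28.2% of the 4 libraries, with no gap at the line.

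Of 10413 genes, 189 (1.82%) were 2-fold higher in replication-leaning members and 234 (2.25%) were 2-fold lower, by the same count. The 4 lists that made the split are again a description. Genes outside them also differed. *Ung*, the uracil-DNA glycosylase, was at 39.1, 62.9, 62.3 and 63.6 CPM in replication-leaning members and at 4.76, 4.42, 3.36 and 4.53 CPM in mitosis-leaning members. *E2f1*, an activator of S phase genes, was at 71.3, 83.0, 64.2 and 84.2 CPM against 27.4, 23.0, 25.3 and 23.7 CPM. *Hells*, a chromatin remodeller, was 3.19-fold higher and *Ccne2* (cyclin E2) 2.76-fold higher. *Ccnd1* and *Ccnd2*, both lower in members than in non-cycling cells, were 2.25-fold and 2.38-fold higher in the replication-leaning members. For each of these genes the 2 ranges did not overlap.

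On the mitosis side, *Cenpa*, the centromeric histone, was 25.2-fold higher, at 502, 454, 456 and 499.8 CPM against 26.8, 14.5, 19.3 and 15.1 CPM, and *Ube2c* was 12.6-fold higher. Both belong to the lists that made the split. *Sapcd2* and the tubulin *Tuba1c*, which do not, were 17.3-fold and 9.44-fold higher. *Cdkn2d* (p19) was at 166, 148, 194 and 177 CPM in mitosis-leaning against 46.8, 44.3, 49.8 and 57.6 CPM in replication-leaning members, and *Cdkn3* was 8.19-fold higher in mitosis-leaning members. *Cdkn1a* differed less, at 1.35-fold in the opposite direction. *Hbb-bs*, a haemoglobin chain, also passed, but its level of 524 CPM was in KO replicate 2 and its other values in mitosis-leaning members were 6.16, 2.94 and 3.14 CPM.

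Lineage genes were spread over both sides of the split. Of 18 myogenic regulators, 0 were 2-fold higher and 1, *Pax3* at 1.21 to 11.2 CPM, was lower in replication-leaning members, with a list median of 0.924. *Pax7* was at 113, 115, 130 and 136 CPM in replication-leaning and 138, 146, 143 and 129 CPM in mitosis-leaning members, with overlapping ranges. *Myod1* was at 86.6, 65.7, 88.4 and 90.3 CPM against 112, 90.4, 108 and 112 CPM, lower in 4 of 4 libraries at 0.78-fold. The Notch, Id and contractile lists had 0 genes past 2-fold in either direction and medians of 0.968, 0.975 and 1.02.

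Members were also divided by detection of 2 lineage genes after thinning. *Pax7*-only members had a *Pax7* UMI and no *Myod1* UMI, and *Myod1*-only members the converse. With all UMIs neither set lacked the other gene. *Pax7* was then at 77.5, 53.9, 66.5 and 65.2 CPM in *Myod1*-only against 200, 203, 210 and 201 CPM in *Pax7*-only members. *Myod1* was at 44.8, 29.9, 44.9 and 38.1 CPM in *Pax7*-only against 244, 207, 236 and 213 CPM in *Myod1*-only members. *Pax7*-only members numbered 118, 112, 171 and 147 (33.7%, 34.5%, 33.7% and 31.1%), and *Myod1*-only members 73, 57, 104 and 90 (20.9%, 17.5%, 20.5% and 19.1%). Both genes were found in 12.6% to 16.5% and neither in 30.8% to 35.4%, so a cell without a UMI of either gene at this depth was frequent. Median depths were alike, at 11692 to 14947 UMIs and 11833.5 to 15240 UMIs. Replication-leaning members made up 29.7%, 27.7%, 28.1% and 29.9% of the *Pax7*-only and 30.1%, 31.6%, 26.9% and 27.8% of the *Myod1*-only members, and these ranges overlapped.

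Of 10293 genes, 83 (0.806%) were 2-fold higher in *Pax7*-only members and 37 (0.359%) were 2-fold lower, and the median fold of all genes was 1.02. No gene of the licensing, DNA synthesis, mitotic or kinetochore lists was among them, and the list medians were 0.953, 1.02, 0.929 and 1.02. Of 18 myogenic regulators 1 was 2-fold higher and 2 were lower, a count that includes the genes that made the split, and the comparison is a description. *Nppc*, which encodes C-type natriuretic peptide, was at 242, 220, 219 and 118 CPM in *Pax7*-only members against 111, 64.7, 51.7 and 33.4 CPM. *Heyl* was at 26.8, 32.9, 26.6 and 33.6 CPM against 10.9, 22.8, 10.96 and 6.36 CPM. The nicotinic receptor gene *Chrna7*, the glycosyltransferase gene *Gxylt2*, *Apoe* and *Bmp4* were 2.97-fold, 2.48-fold, 2.35-fold and 2.22-fold higher in *Pax7*-only members. The *Apoe* fold leaned on KO replicate 1, as its levels were 21.8, 16.7, 85.5 and 18.8 CPM against 14.9, 14.4, 21.1 and 10.3 CPM.

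Of 20 differentiation and contractile genes, 0 were 2-fold higher and 3 were 2-fold lower in *Pax7*-only members, with a list median of 0.760. *Actc1*, cardiac actin and an early actin of fetal muscle, was at 222, 332, 246 and 379 CPM in *Myod1*-only members and 87.8, 68.7, 63.8 and 121 CPM in *Pax7*-only members, 3.45-fold. *Chrna1*, the muscle acetylcholine receptor subunit, was 3.25-fold higher. Neither gene's ranges overlapped. *Ttn* (titin) was 1.93-fold higher, with overlapping ranges. Components of the Notch pathway lay on opposite sides, and were picked after their values were seen. The receptor *Notch3* was at 132, 171, 153 and 143 CPM in *Pax7*-only against 62.6, 113, 99.4 and 65.2 CPM in *Myod1*-only members, the ligand *Jag1* was 1.98-fold and the target *Hey1* 1.63-fold higher in *Pax7*-only members, whereas the ligand *Dll1* was at 4.36, 10.2, 7.73 and 8.14 CPM in *Pax7*-only against 26.8, 16.8, 14.1 and 15.1 CPM in *Myod1*-only members. *Dll1* is low in both sets. *Hes6*, a bHLH factor that favours differentiation, was 1.74-fold higher in *Myod1*-only members.

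**Figure D3:**
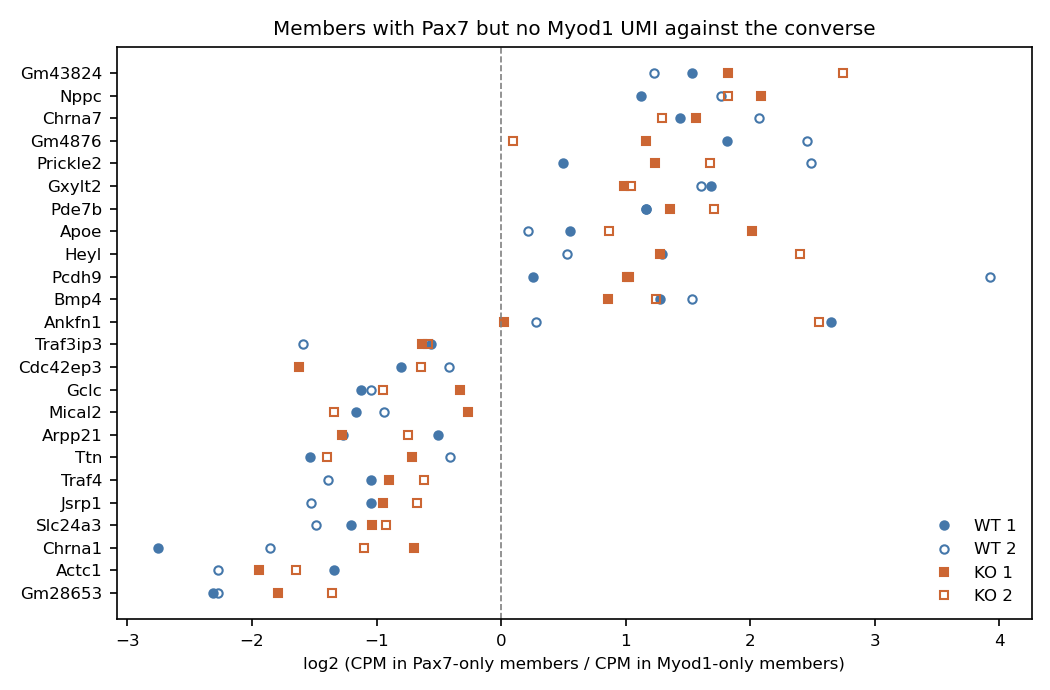
Log2 ratio of the level in Pax7-only over Myod1-only members (x axis) for the named genes (y axis), with 1 point per library, circles for WT and squares for KO, filled for replicate 1 and hollow for replicate 2. All points of Nppc and Heyl lie right of 0, and all points of Actc1, Chrna1 and Ttn lie left of it.

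The members were also set beside dividing cells of another lineage, as a description because the rule barred *Pdgfra*. Against the cycling *Pdgfra* cells, 612 of 11413 genes (5.36%) were 2-fold higher in members and 2160 (18.9%) 2-fold lower. None of these was in the licensing, DNA synthesis or kinetochore lists, whose median folds were 1.10, 1.14 and 0.919 (all genes 0.932). *Cdk1* was at 510, 508, 534 and 510 CPM in members against 599.8, 546, 598 and 604 CPM, lower by a little in 4 of 4 libraries. *Pttg1* was the 1 mitotic gene that passed, at 12.2, 13.5, 13.2 and 13.1 CPM against 42.2, 34.0, 41.4 and 35.0 CPM.

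Of 18 G1 regulators, 4 were higher and 2 lower in the members. *Ccnd2* was at 20.1, 16.6, 18.46 and 20.3 CPM in the members and at 145, 173, 138 and 161 CPM in cycling *Pdgfra* cells. *Ccne1* (cyclin E1) was at 172, 191, 196 and 250 CPM against 44.1, 62.9, 43.7 and 50.8 CPM, and the kinase *Cdk6* at 100.4, 106, 101 and 110 CPM against 21.2, 24.6, 19.1 and 28.2 CPM. *E2f2* was 3.22-fold higher, *Rb1* was at 93.6 CPM against 37.4 CPM as a mean, and *Ccnd1* was 0.48-fold in the members. The ranges of all these genes were apart between the 2 cell sets. Of 16 progenitor surface genes 11 were higher and 2 lower, with *Fgfr4*, a fibroblast growth factor receptor, at 281, 256, 266 and 238 CPM against 1.17, 1.63, 0.601 and 1.18 CPM. The homeobox gene *Lbx1* was 127-fold and *Mstn* (myostatin, a brake on muscle growth) 109-fold higher, on 774 and 1015 UMIs against 10 and 17. *Ptn* (pleiotrophin) and *Igf1* lay the other way, with *Ptn* at 135 to 155 CPM in the members and 1771 to 1977 CPM in the cycling *Pdgfra* cells.

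Of 19 differentiation and contractile genes, 11 were 2-fold higher and 6 were 2-fold lower in the members than in the cycling *Pdgfra* cells, with a median fold of 2.91. *Ttn* was at 62.3, 86.3, 48.7 and 46.5 CPM in members against 4.28, 3.36, 4.81 and 6.73 CPM, and *Des* (desmin) was 3.78-fold higher. Skeletal actin and a fast troponin were among the 6 that lay the other way. *Acta1* was at 61.1, 37.2, 71.5 and 49.8 CPM in members against 151, 76.4, 183 and 162 CPM, and *Tnnc2* was at 0.36-fold. Both were higher in the cycling *Pdgfra* cells within each library. *Actc1*, 4.02-fold higher in the members, had a UMI in 29.7%, 30.8%, 29.0% and 38.8% of thinned members and 8.71%, 7.19%, 13.4% and 13.4% of thinned cycling *Pdgfra* cells. The share of free RNA in these values was not tested.

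The share of members was compared between genotypes to ask whether loss of *SYISL* changed the size of the dividing pool. Members were 4.15% (95% exact binomial interval 3.73 to 4.59), 3.97% (3.56 to 4.42), 5.21% (4.77 to 5.66) and 4.54% (4.15 to 4.96) of kept cells. The mean was 4.06% ± 0.121 in WT and 4.87% ± 0.470 in KO (SD, n = 2), with each KO library above each WT library. The difference of 0.813 percentage points gave p = 0.333 in the exact two-sided permutation test (n = 2 against 2), which is the smallest p this design allows, and 0.444 after Benjamini-Hochberg adjustment over 4 comparisons. As the rule counts raw UMIs, it was applied again after each cell with at least 5000 UMIs was thinned to 5000, and the shares were 2.56%, 2.21%, 3.33% and 3.02%, a difference of 0.792 percentage points.

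Within the muscle lineage the genotypes were closer. Members were 33.2%, 34.0%, 35.1% and 35.0% of the 4832 myogenic cells, defined by at least 2 of the 4 myogenic genes and no *Pdgfra* UMI. The mean was 33.6% ± 0.535 in WT and 35.0% ± 0.0484 in KO (SD, n = 2), a difference of 1.42 percentage points (exact permutation p = 0.333, adjusted 0.444), and the counting intervals of the 4 libraries, which together spanned 30.4% to 37.6%, overlapped. After thinning the shares were 27.0%, 26.3%, 28.9% and 31.6%, a difference of 3.60 percentage points. Per 100 cycling *Pdgfra* cells there were 72.3, 51.8, 84.6 and 66.2 members, and the groups overlapped (62.1 ± 14.5 and 75.4 ± 13.0, SD, n = 2, exact permutation p = 0.667). The replication-leaning share was 30.3% ± 2.00 in WT and 28.4% ± 0.298 in KO, a difference of -1.89 percentage points (exact permutation p = 0.333, n = 2 against 2, adjusted 0.444).

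**Figure D4:**
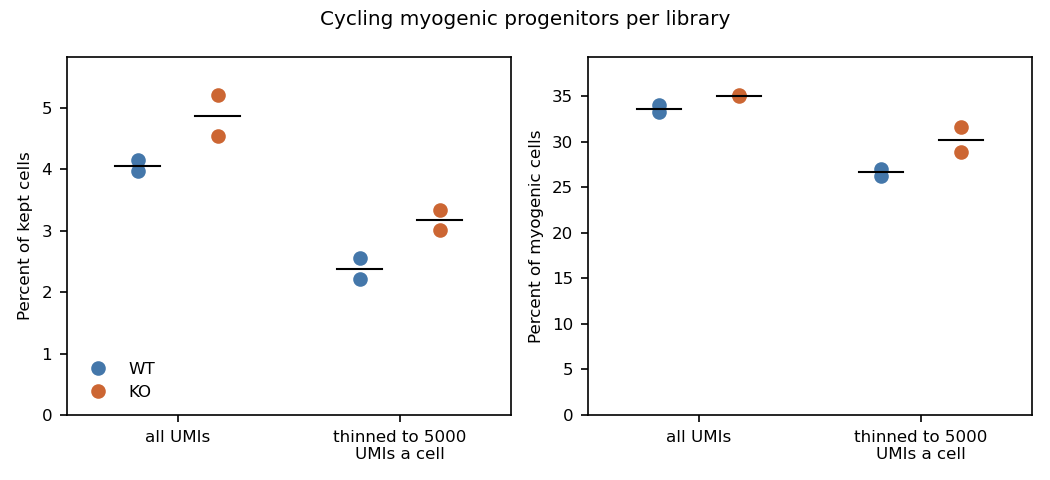
Members as a percentage of kept cells (left) and of myogenic cells (right) in each library, with all UMIs and after thinning to 5000 UMIs per cell. Points are libraries and short bars are group means. The 2 KO libraries lie above the 2 WT libraries in each pair, by 0.813 and 0.792 percentage points of kept cells and by 1.42 and 3.60 of myogenic cells.

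Expression in the members was then compared between genotypes on counts summed per library. edgeR's quasi-likelihood test found 0 of 12383 genes (0%) at an adjusted p under 0.05. At an unadjusted p under 0.05, 306 genes (2.47%) were higher and 259 (2.09%) lower in KO, and DESeq2 likewise called 0 genes, with 83 higher and 43 lower before adjustment. Both KO libraries were above both WT libraries for 1601 genes (12.9%) and below for 2500 (20.2%). Of all 12383 genes, 6301 had a log2 difference above 0, and the median log2 difference was 0.0042. The smallest adjusted p was 0.148, for *Mfap5*, a microfibril protein, at 5.68, 6.54, 17.6 and 17.3 CPM, a log2 difference of 1.54 with SE 0.20, and this gene was picked after its values were seen because it lies under the level of 20 CPM set for named genes.

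Of the 8 genes named by rule on the side of higher values in KO, 3 encode matrix proteins. *Dcn* (decorin) was at 33.3, 35.0, 54.2 and 53.6 CPM, a log2 difference of 0.69 with SE 0.12 and an adjusted p of 0.511. *Col1a1* was at 188, 174, 217 and 300.0 CPM and *Aspn* (asporin) at 23.7, 26.6, 36.7 and 38.5 CPM, with log2 differences of 0.55 and 0.61. The 2 groups did not overlap for any of these, which the naming rule required, and none passed the adjusted threshold. These are also genes of fibroblastic cells. When the members with 5 or more UMIs of another cell type's markers were removed, the log2 differences were 0.28 for *Dcn*, 0.17 for *Col1a1* and 0.19 for *Aspn*. *Dcn* is itself one of the markers used for that removal, and the part of other cells in these values was not tested. Lists of other cells' markers had 0 genes past adjustment. Among the genes tested, values lay above 0 in KO for 6 of 6 fibroblastic genes (median log2 difference 0.46) and 6 of 7 vascular genes (0.72). The counts were 6 of 6 for blood and immune genes (2.72), 2 of 3 for glial genes (0.20) and 2 of 6 for tendon and cartilage genes (-0.33). The blood and immune list has 13 genes, of which 6 were tested, and holds the haemoglobin genes, which were high in KO replicate 2. *S100a9* of that list was not among those above 0. It was at 73.0, 1.43, 1.47 and 0.631 CPM, high in WT replicate 1.

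Other genes named on that side were *Plk2*, a Polo-like kinase of the stress response, at 71.8, 71.1, 93.9 and 96.5 CPM (log2 difference 0.44, SE 0.10), *Phlda1* (0.46), *Ndufa4l2* (0.63), *Tnfaip6* (0.66) and the histone gene *Hist1h2ap* (0.48, uncertain because of near-identical copies). *Plk2* was at 0.45 without the members that carried markers of other cells. On the lower side, *Dync1i1*, a dynein intermediate chain, was at 38.5, 36.4, 23.0 and 16.2 CPM, a log2 difference of -0.91 with SE 0.17 and an adjusted p of 0.674. *Car3*, a carbonic anhydrase of slow muscle and fat, was at 51.7, 49.1, 31.7 and 15.9 CPM (-1.06, SE 0.24, adjusted p 0.936). *Ttn* was at 62.3, 86.3, 48.7 and 46.5 CPM (-0.61), and *Insr*, the insulin receptor, at 60.0, 62.8, 48.0 and 39.9 CPM (-0.46). The other 4 were *Acss3* (-0.96), *Scfd2* (-0.59), *Dnajb12* (-0.49) and *Cplane1* (-0.46). On the mouse genome GRCm38, *Dcn* lies on chromosome 10 from 97479609 to 97518143, *Dync1i1* on chromosome 6 from 5725639 to 6028039 and *Car3* on chromosome 3 from 14863512 to 14872523.

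By list, no gene of the division programme passed the adjusted threshold in KO. For scale, 6301 of all 12383 genes were above 0. At the unadjusted threshold 306 (2.47%) were higher and 259 (2.09%) lower. Of 24 mitotic genes, 21 had a log2 difference above 0, with a list median of 0.08, and 2 passed the unadjusted threshold. These were *Cdc20*, the activator of the anaphase-promoting complex, at 196, 184, 208 and 247 CPM (0.29, SE 0.10) and *Aurkb* at 211, 204, 235 and 231 CPM (0.19, SE 0.08). The kinetochore list was balanced, with 14 genes above and 14 below 0 and a median of 0.00. Licensing genes had 10 above and 9 below, with a median of 0.00, and DNA synthesis genes 11 above and 19 below, with a median of -0.06. *Cdk1* itself was at 510, 508, 534 and 510 CPM, with a log2 difference of 0.07.

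Regulators of the cycle and of the lineage had small differences too. Of 7 inhibitor genes tested 6 were above 0, with *Cdkn2d* at 136, 118, 156 and 145 CPM (0.27, unadjusted p = 0.0216 by edgeR), and *Ccne1* had a log2 difference of 0.32 (unadjusted p = 0.0205 by edgeR). Of 19 myogenic regulators 12 were above 0, with a median of 0.08 and 0 past the unadjusted threshold. *Pax7* differed by 0.03 (SE 0.09), *Myf5* by 0.08, *Msc* by 0.11 and *Myod1* by 0.18 (SE 0.12) on the log2 scale, and these 4 genes took part in the rule. Of 17 Notch genes 11 were above 0, with 2 past the unadjusted threshold. *Hes1*, a Notch target, was at 188, 186, 228 and 218 CPM (0.28, SE 0.08), and *Nrarp* at 9.13, 10.8, 13.1 and 14.8 CPM (0.51, SE 0.20). *Id1*, an inhibitor of bHLH factors, was at 357, 413, 436 and 462 CPM (0.25, SE 0.09). The KO libraries were above the WT libraries for all 3 genes, none of which passed adjustment.

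**Figure D5:**
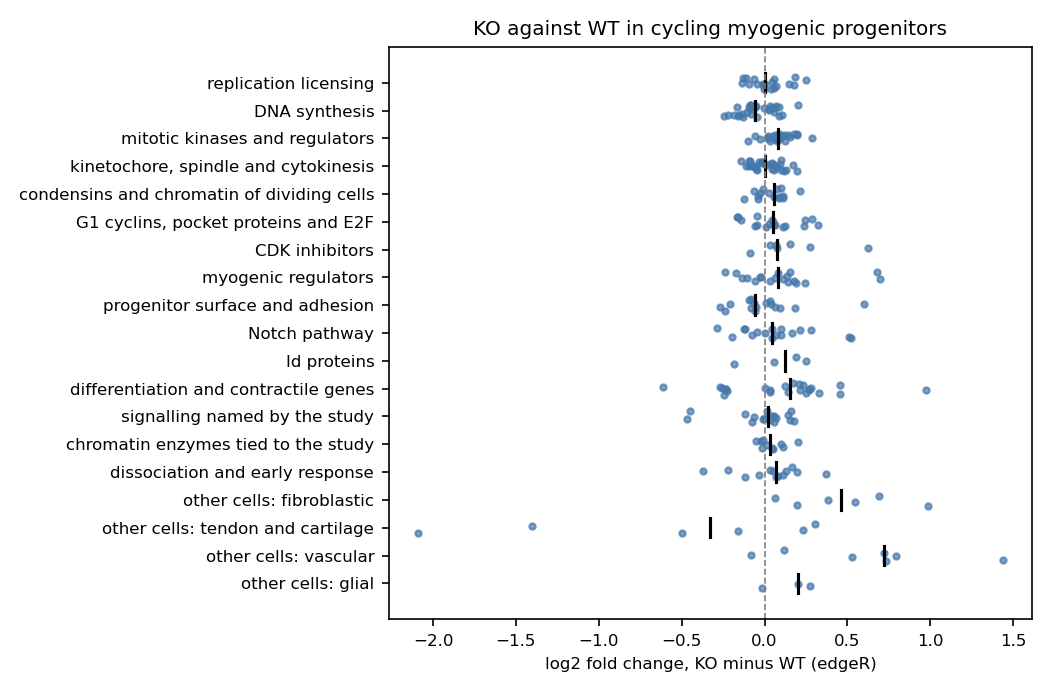
Log2 difference between KO and WT in the members (x axis) for each gene of the lists (rows), with bars at the list medians. No gene of any list passed an adjusted p of 0.05. The mitotic, kinetochore and licensing medians lie between 0.00 and 0.08, and the fibroblastic and vascular medians at 0.46 and 0.72. The blood and immune list is not drawn.

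Genes tied to the knocked-out locus and its reported partners were looked at in the same fit. No feature of the files is named *SYISL*, so the knockout itself was not checked here. Its host gene *Synpo2* was low in the members, at 6.69, 5.52, 9.31 and 4.42 CPM (log2 difference 0.19, SE 0.35), with overlapping groups. *Ezh2* was at 462, 434, 462 and 406 CPM (-0.02, SE 0.08). Of the 18 signalling genes on the list, 11 were above and 7 below 0, with a median of 0.02, and of 10 chromatin enzymes 6 were above and 4 below. Early-response genes of dissociation were above 0 for 9 of 13, with a median of 0.07.

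Whether the KO effect in members differed from that in non-cycling progenitors was tested with an interaction term, library being a block. Of 12602 genes, 17 (0.135%) passed an adjusted p of 0.05 in edgeR, 10 with a higher and 7 with a lower effect in the members, and DESeq2 called 0 (17 higher and 13 lower before adjustment). Several of the 17 were transcripts of other cell types and of 1 library. The haemoglobin gene *Hbb-bs* had an interaction of 3.06 on the log2 scale (adjusted p = 7.09e-05), and its level was 384 CPM in the members and 38.1 CPM in the non-cycling progenitors of KO replicate 2, with 1.46 to 5.07 CPM in all others. *Hba-a1* (3.78, adjusted p = 0.0170) had the same library behind it, and both genes have near-identical copies. Without KO replicate 2 *Hbb-bs* was no longer called (0.84, adjusted p = 1.0), nor was it without cells carrying markers of other types (0.17), without WT replicate 1 (3.33, adjusted p = 0.229) or without WT replicate 2 (2.89, adjusted p = 0.127).

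*Fabp4*, a fatty acid-binding protein of adipocytes and endothelium, was at 61.1, 89.8, 137 and 69.9 CPM in members and 70.6, 170, 102 and 63.4 CPM in non-cycling cells (interaction 0.92, SE 0.14, adjusted p = 0.000162). It was at 0.14 without cells carrying other markers and at 0.51 without Scrublet calls, past the threshold in neither. *Ndufa4l2*, a mitochondrial protein induced by low oxygen, was at 36.3, 34.6, 47.0 and 60.7 CPM in members against 63.3, 73.2, 50.9 and 74.8 CPM (0.72, SE 0.15, adjusted p = 0.0243). Its levels in the members did not overlap between genotypes, and those in non-cycling cells did. The size held at 0.69 without cells carrying other markers, with an adjusted p of 0.183. *Ndufa4l2* was not called without WT replicate 1 (0.85) or WT replicate 2 (0.59), nor *Fabp4* without WT replicate 2 (0.51).

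Genes with a lower KO effect in the members were led by muscle transcripts. *Actc1* was at 127, 140, 117 and 198 CPM in members against 96.3, 116, 121 and 238 CPM (interaction -0.51, SE 0.10, adjusted p = 0.0170). *Tnnc2* was at 27.0, 16.2, 27.3 and 24.1 CPM against 32.2, 19.4, 36.7 and 179 CPM (-1.63, SE 0.35, adjusted p = 0.0243), and without KO replicate 2 the interaction was -0.16. Without WT replicate 1 or WT replicate 2 it was -1.63 or -1.62 and not called (edgeR adjusted p = 0.883 and 0.808). The value of 179 CPM again belongs to the non-cycling cells of KO replicate 2, as for *Acta1*. *Bex1*, a small adaptor protein of regenerating muscle and neurons, was at 145, 187, 130 and 131 CPM against 112, 158, 141 and 151 CPM (-0.46, SE 0.10, adjusted p = 0.0243). *Nrg1*, the neuregulin ligand, had a value of -0.53 that did not pass (adjusted p = 0.0620).

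Against cycling *Pdgfra* cells the interaction passed for 4 of 14610 genes (0.0274%) in edgeR. *Ndufa4l2* was again among them (0.99, SE 0.12, adjusted p = 0.0338), at 131, 132, 86.2 and 114 CPM in cycling *Pdgfra* cells, where WT lay above KO. *Acta2*, smooth muscle actin, was at 377, 297, 384 and 335 CPM in members and 44.0, 26.8, 75.5 and 70.9 CPM in cycling *Pdgfra* cells (-0.996, SE 0.12, adjusted p = 0.0338). The groups overlapped in the members and did not in the *Pdgfra* cells. The other 2 were the neutrophil genes *Stfa1* and *S100a9*, at 31.4 and 73.0 CPM in WT replicate 1 and at most 1.47 CPM in the members of the other libraries. *Igfbp2* (0.72, adjusted p = 0.121), *Kirrel3* (0.88, adjusted p = 0.177), *Car3* (-2.19), *Tagln* (-0.84) and *Cxcl10* (-0.80, the last 3 at adjusted p = 0.223) did not pass.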

How the data were processed

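Single cells of E18.5 leg muscles were profiled in 2 WT and 2 *SYISL* KO libraries. Per the submitters' processing notes, the authors used Cell Ranger 7.2.0 and mm10, and the deposited matrices hold unnormalised UMI counts of each gene in each cell. Whether intronic reads were counted was not given in the sources used here. Kept cells met the limits of the study's methods. Deposited depth was 109653824 to 126257094 UMIs per library, and members held a median of 11555 to 15222 UMIs.

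Member counts were summed per library and tested with edgeR 4.0.16 (R 4.3.3, filterByExpr, TMM, quasi-likelihood test, Benjamini-Hochberg adjustment, threshold 0.05). Interactions used library as a block. Shares were compared with the exact two-sided permutation test over libraries (scipy 1.17.1). Levels are counts per 1000000 UMIs of a summed set (CPM), and comparisons of cell sets cover genes at 5 CPM or more in either set. Doublets were left in, with removal of Scrublet calls (scanpy 1.11.5) as an alternative. Binomial intervals are exact (95%) and cover counting error only. The code was tested on simulated data. Alternatives were DESeq2 1.42.0, RLE factors, other filters and limits, thinning, a replicate block and each library left out.

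Named genes in the KO comparison were up to 8 per direction with the smallest p among those at 20 CPM or more whose groups did not overlap, with sex-linked transcripts apart. For interactions up to 4 were taken. Between cell sets up to 12 were taken by fold, at 20 CPM or more in the higher set and in the same direction in 4 of 4 libraries. Leaving each library out of these folds was added after the values were seen. Other list genes named as examples were picked after their values were seen. The members, lists and comparisons were chosen with earlier results of these data known.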

Additional observations from a re-analysis of the deposited data

Results flagged for a closer look

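The KO effect differed between the members and another cell set, by the interaction test in edgeR, for 9 named results. Against non-cycling progenitors these were *Hbb-bs* (3.06 on the log2 scale), *Hba-a1* (3.78), *Fabp4* (0.92) and *Ndufa4l2* (0.72), each with a higher KO effect in the members, and *Actc1* (-0.51), *Bex1* (-0.46) and *Tnnc2* (-1.63), each with a lower one. Against cycling *Pdgfra* cells they were *Ndufa4l2* (0.99) and *Acta2* (-0.996). None of the 7 results against non-cycling progenitors was called by DESeq2, where every adjusted p was 0.9998. All 9 results kept their sign under every alternative that gave a value, also where the size moved widely, as for *Hbb-bs* (0.17 to 3.51). Of the 7 results against non-cycling progenitors, all kept their call without KO replicate 1, *Fabp4* alone kept it without WT replicate 1 and none kept it without WT replicate 2. Without KO replicate 2, *Fabp4* and *Ndufa4l2* kept it, *Hba-a1* gave no value, and *Hbb-bs*, *Actc1*, *Bex1* and *Tnnc2* lost it, at 0.84, -0.38, -0.41 and -0.16. The groups of 2 libraries were too small for a test of single outlying samples.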

How the results depend on the processing

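Among the shares, the KO difference in the percentage of myogenic cells was 1.42 percentage points, 3.60 after thinning to 5000 UMIs and 2.14 where 3 of the 4 myogenic genes were asked for. Leaving out each library in turn gave 1.04 to 1.80, and 0.481 to 1.15 for the percentage of kept cells. In the members, 1 gene was called where *Mki67* and *Top2a* had at least 5 UMIs. Leaving out each library gave 0 to 19 calls, with 8 without WT replicate 1 and 19 without WT replicate 2. In these fits the lone library of a group is assumed to vary like the other group. The 17 interaction calls against non-cycling progenitors became 0 with DESeq2, 37 with no filter on low counts, 10 without Scrublet calls, 6 without cells carrying markers of other types (chosen after seeing the data) and 1 to 64 with a library left out, with 1 without WT replicate 1, 8 without WT replicate 2 and 64 without KO replicate 1. The 4 calls against cycling *Pdgfra* cells became 108 with no filter, 0 without Scrublet calls and 0 to 102 with a library left out, with 0 without WT replicate 1, 24 without WT replicate 2, 73 without KO replicate 1 and 102 without KO replicate 2. The cause was not tested. No result reversed its direction. The 2 libraries per group and the 325 to 511 members in each limit what these data can show.

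Replicate numbers are shared between the groups, and same-numbered libraries deviated together with a correlation of 0.163 over 3575 genes, but 2 pairs do not establish pairing. With the number as a replicate block, edgeR called 34 genes in the members (24 higher and 10 lower in KO). Among them were *Dcn* (adjusted p = 0.00797), *Dync1i1* (0.00208) and *Car3* (0.00110). The differences in shares of 0.813, 1.42 and -1.89 percentage points cannot change with this block, because each number is present in both groups.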
